A study of Mus musculus with 6 samples.

Results

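Fibroblast growth factors (FGFs) are signalling proteins that act through FGF receptors, and 10 genes of this system were followed in TM3 cells with and without overexpression of A20. The genes were the 5 receptor genes Fgfr1, Fgfr2, Fgfr3, Fgfr4 and Fgfrl1 and the 5 ligand genes Fgf18, Fgf2, Fgf7, Fgf10 and Fgf21, taken by symbol from a count table of 54532 genes. The ligands were chosen by their read counts in these same libraries, and the list was drawn up when the differences of Fgfr1 and Fgf18 between the groups were already known. Their levels are therefore given as descriptions, and the adjusted p of a listed gene is its value in the fit of all genes, not independent evidence.

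TM3 is an established mouse Leydig cell line from testis, and Leydig cells are the cells that make testosterone. RNA was sequenced from 3 control libraries, with the genotype given as WT and the title as O/E control, and from 3 libraries with the genotype A20 overexpression. A20 is a ubiquitin-editing enzyme encoded by Tnfaip3 that restrains NF-kB signalling. How A20 was overexpressed, whether the cells are 1 clone and what the controls carried are not given in the sources used here. Nothing says that the libraries came from separate cultures, so p-values measure only the spread between these libraries, which may be technical.

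The secreted FGFs bind receptor tyrosine kinases on the cell surface, with heparan sulfate chains as a cofactor for most ligands and a Klotho protein as the co-receptor for the hormone-like ones. An activated receptor signals through the adaptor FRS2, the RAS and MAP kinase cascade, PI3 kinase and phospholipase C gamma. Sprouty, SPRED and dual-specificity phosphatase proteins feed back on the cascade. FGF signalling takes part in the development of the testis and in the growth of many cells of mesenchymal origin.

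Promoter sequences are shown for Fgf18, the ligand gene called higher in A20 overexpression when 1 control was left out, and for Fgf21, the ligand gene with the highest level per length. Each is the 250 bases before the RefSeq start, 5′ to 3′ on the gene's strand, in GRCm38.p6. Fgf18 is on the minus strand at chr11:33147401-33147650, and Fgf21 is on the minus strand at chr7:45615491-45615740. Capitals mark matches on either strand to the 6 motifs searched.
Fgf18 promoter: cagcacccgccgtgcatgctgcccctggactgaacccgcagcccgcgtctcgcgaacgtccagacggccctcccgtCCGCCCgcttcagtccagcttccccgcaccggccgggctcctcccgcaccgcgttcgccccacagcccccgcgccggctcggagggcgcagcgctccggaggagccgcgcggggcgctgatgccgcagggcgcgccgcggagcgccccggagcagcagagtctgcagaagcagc
Fgf21 promoter: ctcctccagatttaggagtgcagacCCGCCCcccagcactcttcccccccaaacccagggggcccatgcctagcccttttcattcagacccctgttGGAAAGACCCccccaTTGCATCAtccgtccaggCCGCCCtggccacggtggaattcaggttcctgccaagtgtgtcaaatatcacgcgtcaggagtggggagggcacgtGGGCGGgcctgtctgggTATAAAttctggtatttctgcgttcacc

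The motifs were a GC box (GGGCGG), the NF-kB motif, the AP-1 motif, a C/EBP-ATF composite motif (TGATGNAA), a half-site of the steroidogenic factor NR5A1 (CAAGGNCA) and the TATA box. The TATA box was searched as TATAAA. The NF-kB pattern was a fixed run of letters with 2 positions open to any base, not the usual NF-kB consensus. Its matches, that of Fgf21 included, and its share of windows are therefore not shown to be canonical NF-kB sites. The Fgf18 window held 37 CpG dinucleotides and 1 match, a GC box 174 bases before the start. The Fgf21 window held 9 CpGs, 3 GC boxes, a TATA box 28 bases before the start, an NF-kB match, read as GGAAAGACCC, 154 bases before it and a composite match, read as TTGCATCA, 139 bases before it. Over 32851 such windows the median was 6 CpGs, and 32.7% held the GC box, 12.4% the TATA box, 1.41% the NF-kB motif, 6.75% the AP-1 motif, 3.45% the composite motif and 5.53% the NR5A1 half-site. None of these matches overlapped another in the windows shown, and 9 of the 10 genes had a window. The windows of Fgfr3, Fgfr4, Fgfrl1, Fgf2 and Fgf10 held GC boxes alone, and those of Fgfr2 and Fgf7 held no match. The bases at the RefSeq start of Fgfr2 and of Fgfrl1 matched no GENCODE M21 transcript of the gene. The windows of Fgfr2, Fgfrl1, Fgf2 and Fgf10 and 1 of the 2 of Fgfr3 lie within the annotated gene span. They may not be the promoters in use. A match is a run of letters and does not show that a factor binds there.

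Total counts ran from 13841287 to 16917979 per library, so that 3 counts, the limit set for a gene without a count, correspond to 0.177 to 0.217 CPM, the count scaled to the total of its library. These limits cover counting error only. Tnfaip3, the overexpressed gene, was at 41.0, 33.7 and 43.6 CPM in the A20 libraries and at 30.9, 11.9 and 15.2 CPM in control replicates 1, 2 and 3. Each A20 library was above each control (log2 fold change 1.06 ± 0.30, SE; adjusted p = 0.336 in edgeR with all 6 libraries, and 1.51 ± 0.19, SE; adjusted p = 0.000256 without control replicate 1). Control replicate 1 stood apart: 62.4% of 13350 genes tested lay outside the range of the other 5 libraries there, 40.7% above and 21.7% below. Any library lies outside for some genes, and this share was not computed for the others. The Pearson correlation of log2 CPM was 0.927 to 0.944 between control replicate 1 and each other library. Among the other 5 libraries it was 0.971 to 0.992. The summed level of 8 Leydig cell markers was 2039 CPM in it and 3.97 to 7.86 CPM in the others, where Hsd3b1, Cyp17a1 and Lhcgr had no count and Hsd17b3 had none in any library. The summed level of 4 endothelial markers was 35.6 CPM there and 0.139 to 0.639 CPM elsewhere, and it rested on Cdh5 (35.1 CPM), since Kdr and Tek were at 0 and Pecam1 at 0.586 CPM in that library. Among macrophage markers Adgre1 and Ptprc were at 0 in all 6 libraries and Cd68 ran from 3.71 to 38.7 CPM. Among germ cell markers Dazl was at 0, Sycp1 ran from 4.81 to 8.28 CPM and Ddx4 from 0.433 to 3.97 CPM. Results are given with all 6 libraries and without control replicate 1. The part of this library's other differences in any FGF result was not tested beyond leaving it out.

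Per length, the RNA of the ligand Fgf21 and of 3 receptors made up most of the signal from the 10 genes. The measure here is the authors' FPKM, which divides by the length of the gene's exons (951 bases for Fgf21 and 10328 for Fgfr2). In the A20 libraries Fgf21 stood at 43.9 FPKM ± 8.93 (SD, n = 3), Fgfrl1 at 17.3 ± 0.869, Fgfr1 at 15.7 ± 0.248, Fgfr2 at 9.66 ± 0.469 and Fgf18 at 5.71 ± 0.424. Fgf7 at 1.35 FPKM ± 0.275 (SD, n = 3), Fgf10 at 1.26 ± 0.253 and Fgf2 at 1.06 ± 0.0777 followed. The ranges of these 3 overlapped, at 1.04 to 1.56, 0.968 to 1.42 and 0.975 to 1.13 FPKM. The order of Fgfrl1 over Fgfr1 was wider than the SD of either. In the controls Fgf21 averaged 32.9 FPKM ± 20.8 (SD, n = 3), Fgfr1 18.7 ± 9.998, Fgfrl1 11.8 ± 2.38 and Fgfr2 9.46 ± 3.02. Fgf21 was above Fgfr1 in each control, at 9.77, 38.8 and 50.0 FPKM against 7.83, 20.8 and 27.5 FPKM. Fgfr1 was below Fgfrl1 in control replicate 1 (7.83 against 10.4 FPKM). Fgfrl1 was slightly below Fgfr2 in control replicate 2 (10.5 against 10.7 FPKM). Fgf18 averaged 2.88 FPKM ± 2.13 (SD, n = 3) and Fgf7 2.48 ± 0.501 in the controls, within their spread. Among the lowest levels in control were Fgf2 at 0.884 FPKM ± 0.178 (SD, n = 3) and Fgf10 at 0.872 ± 0.248, which did not differ beyond their spread.

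**Figure D1:**
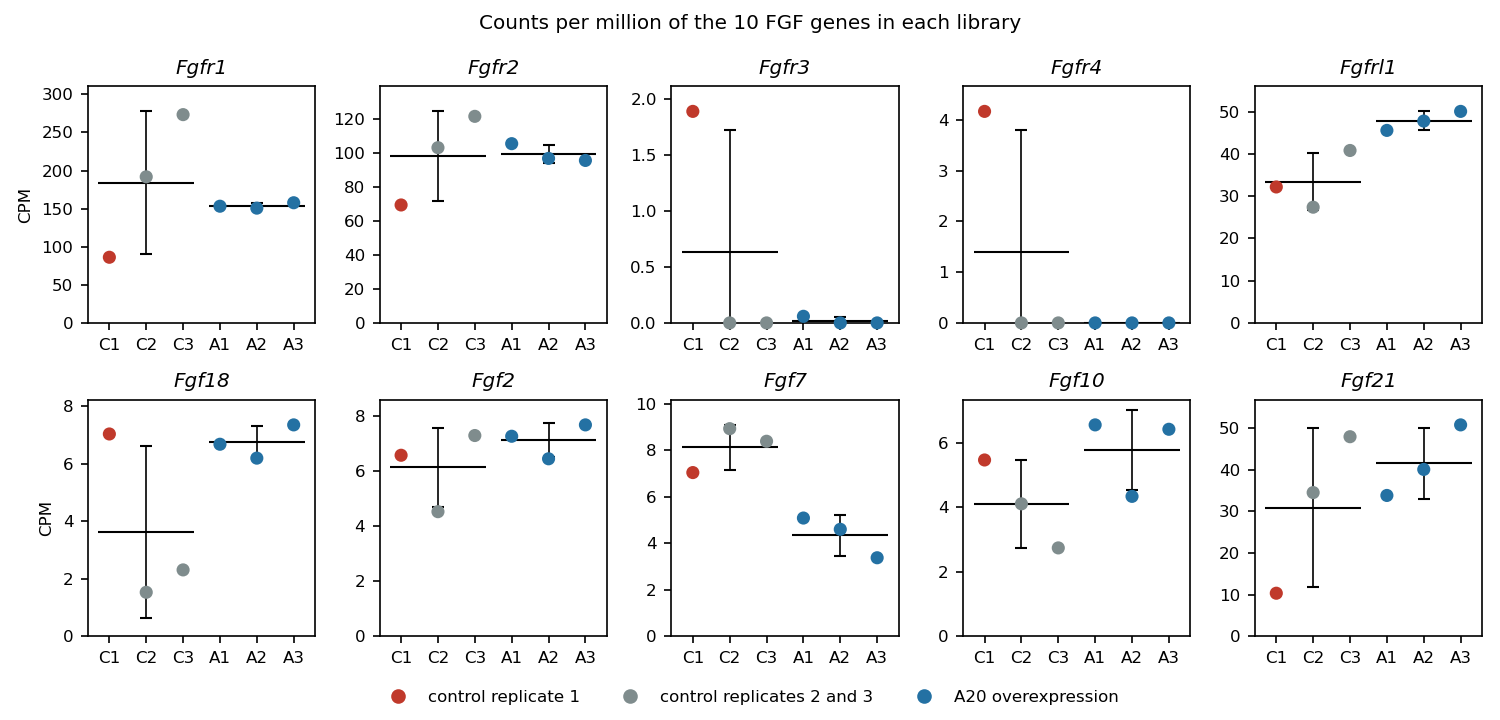
Level of each of the 10 FGF genes in CPM (linear axes from 0) in control libraries C1 to C3 and A20-overexpressing libraries A1 to A3. Horizontal lines are group means and vertical bars the SD (n = 3), with bars below 0 not drawn. Fgfr3 and Fgfr4 are near or at 0 outside C1, and C1 is lowest for Fgfr1, Fgfr2 and Fgf21.

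Over all 6 libraries, 0 of the 8 members tested passed edgeR's quasi-likelihood test (Benjamini-Hochberg adjusted p of at least 0.423), against 0.015% of all 13350 genes (0.00749% higher and 0.00749% lower). DESeq2 called 0 of them as well, where it called 1.38% of all genes with an adjusted p, and 2 had an unadjusted p under 0.05, a share to set beside 10.1% of all genes. When control replicate 1 was left out, Fgf18 rose and Fgfr1 fell, and 6 of 8 did not pass, where 4.6% of 13658 genes were called (1.92% higher and 2.68% lower). On those 5 libraries DESeq2 called 3 of the 8, and 6.5% of all genes. These calls were known when the genes were chosen, so nothing is read from the count. The groups did not overlap in CPM for 1 higher and 1 lower member with all 6 libraries, beside 16.9% of all genes, and for 3 higher and 2 lower members without control replicate 1, beside 37.9% (20.7% higher and 17.2% lower). Fgfr3 and Fgfr4 were not tested, since nearly all their counts lay in control replicate 1, too few libraries to pass the expression filter. The median log2 fold change of the 8 tested was 0.32 with all 6 libraries and 0.11 without control replicate 1, beside -0.05 and -0.0028 over all genes. In RNA of whole cultures, a change in the number of expressing cells and a change in RNA per cell cannot be told apart.

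Fgfr1 encodes the receptor most widely expressed in mesenchymal cells. The gene (ENSMUSG00000031565, GRCm38 chromosome 8, 25513654 to 25575718, plus strand) was at 86.2, 192 and 273 CPM in control replicates 1, 2 and 3 and at 153, 151 and 158 CPM in the A20 libraries. The A20 libraries lay close together, below control replicates 2 and 3 and above control replicate 1, so the groups overlapped. With every library in the fit, Fgfr1 had a log2 fold change of -0.27 ± 0.37 (SE; adjusted p = 0.837 in edgeR). Leaving out control replicate 1, the control mean was 233 CPM ± 57.7 (SD, n = 2) against 154 CPM ± 3.59 (SD, n = 3) in A20 overexpression, and Fgfr1 fell with a log2 fold change of -0.62 ± 0.15 (SE; adjusted p = 0.0244 in edgeR), 1.54-fold. This call was lost when any 1 of the A20 libraries was also left out (edgeR adjusted p of 0.106 to 0.118). With 1 control, the fitted log2 fold change was -0.40 against control replicate 2 and -0.82 against control replicate 3. Such a fit holds no spread between controls, so only its size is given. With control replicate 1 kept and control replicate 3 left out, the direction turned, to 0.14 ± 0.37 (SE; adjusted p = 0.908 in edgeR). The antisense gene Gm16159 shares 164 of the 9875 exon bases of Fgfr1 and reached 1.52 CPM at most.

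Fgfr2 encodes the receptor whose splice forms separate epithelial from mesenchymal ligand binding. The table counts genes, so these forms are not separated. Fgfr2 (ENSMUSG00000030849, chromosome 7, minus strand) was at 69.4, 103 and 122 CPM in control and at 105.5, 96.8 and 95.6 CPM in A20 overexpression. Control replicate 1 was lowest, and the A20 libraries lay around the lower of the other controls. Fgfr2 had a log2 fold change of 0.01 ± 0.23 (SE; adjusted p = 0.992 in edgeR) with all 6 libraries and -0.21 ± 0.14 (SE; adjusted p = 0.4) without control replicate 1. In the annotation, Fgfr2 runs from 130162451 to 133123350 and shares 314 of 10328 exon bases with Ctbp2 on the same strand, which was at 27.9 to 46.9 CPM.

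Fgfrl1 encodes a receptor-like protein that binds FGF ligands and heparan sulfate but lacks the tyrosine kinase domain. Fgfrl1 (ENSMUSG00000008090, chromosome 5, 108692382 to 108706924, plus strand) was at 32.2, 27.4 and 40.8 CPM in control and at 45.6, 47.8 and 50.1 CPM in A20 overexpression. Each A20 library lay above each control, which held for 7.62% of all genes with all 6 libraries. For Fgfrl1 the fitted log2 change was 0.53 ± 0.18 (SE; unadjusted p = 0.017, adjusted p = 0.423 in edgeR), and 0.46 ± 0.17 (SE; adjusted p = 0.126 in edgeR) without control replicate 1. It did not pass in either fit. With 1 control, where no spread between controls enters, the fitted value was 0.73 against control replicate 2 and 0.24 against control replicate 3.

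Fgfr3 and Fgfr4, receptors best known from cartilage and from liver, were counted in control replicate 1 and hardly elsewhere. Fgfr4 (ENSMUSG00000005320, chromosome 13, 55152640 to 55168759) had 64 counts in control replicate 1, or 4.17 CPM with an exact Poisson 95% interval of 3.21 to 5.32 CPM. It had 0 counts in the other 5 libraries and was at least 19.2-fold higher in control replicate 1 than the highest limit of 3 counts in any of them. Fgfr3 (ENSMUSG00000054252, chromosome 5, 33721674 to 33737068) had 29 counts there, or 1.89 CPM (1.27 to 2.71), and 1 count in the other 5 libraries together, or 0.0132 CPM (0.000334 to 0.0734). The intervals cover counting error only. The TEC gene G630022F23Rik, on the other strand, shares 998 of the 7158 exon bases of Fgfr3 and had no count in any library. These are differences of 1 library, not between the groups.

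Per length, Fgfr1 made up 49.5% and 51.2% of the summed FPKM of the 5 receptors in control replicates 2 and 3 and 36.5% to 37.0% in the A20 libraries. In control replicate 1 its share was 30.7%. The group means were 43.8% ± 11.4 (SD, n = 3) and 36.8% ± 0.236 (SD, n = 3), which overlapped, a difference of -7.01 percentage points. Over control replicates 2 and 3 the mean was 50.3% ± 1.18 (SD, n = 2), a difference of -13.6 points. Fgfrl1, the member without a kinase, held 25.1% and 27.1% in control replicates 2 and 3, 40.7% in control replicate 1 and 38.9% to 41.6% in A20 overexpression. No test was run, as 3 against 3 libraries cannot give a small exact p and the genes were chosen with results known. The summed receptor FPKM was 25.5 in control replicate 1, 41.9 and 53.8 in control replicates 2 and 3 and 41.9 to 43.1 in A20 overexpression.

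**Figure D2:**
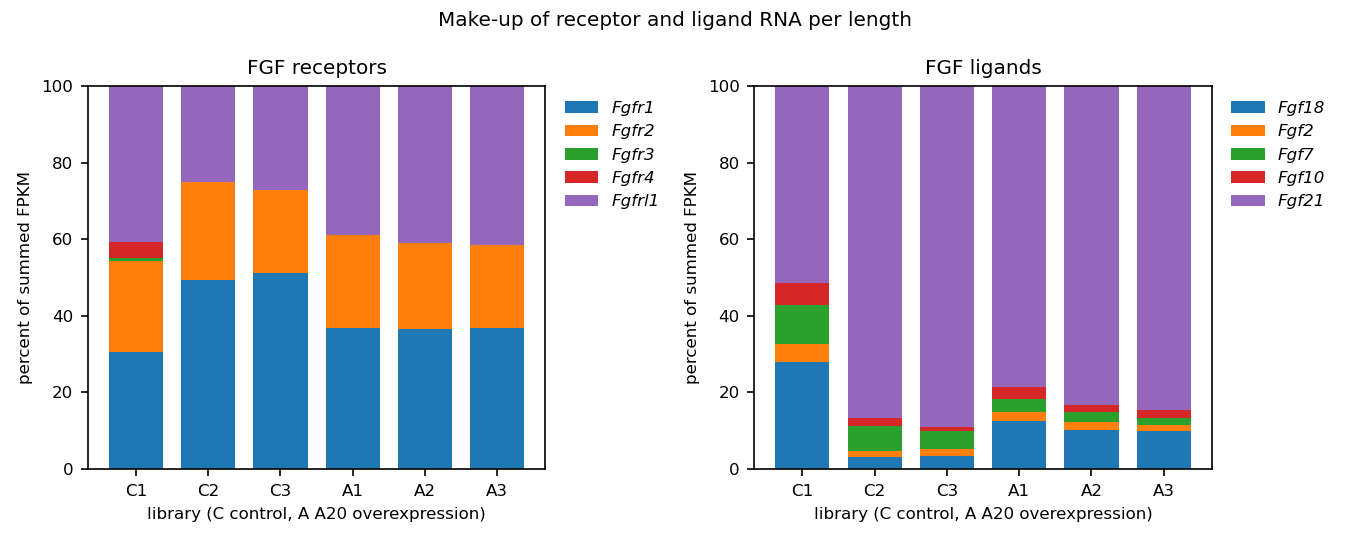
Percent of the summed FPKM of the 5 receptor genes (left) and of the 5 ligand genes (right) in each library, stacked from 0 to 100, with C1 to C3 control and A1 to A3 A20 overexpression. Fgfr1 takes 49.5% and 51.2% in C2 and C3 and 36.5% to 37.0% in A1 to A3, and Fgf21 takes 51.5% in C1 and 78.6% to 89.0% elsewhere.

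Fgf18 encodes a ligand of the FGF8 subfamily known from bone, cartilage and lung development. Fgf18 (ENSMUSG00000057967, chromosome 11, 33117430 to 33147400, minus strand) was at 7.04, 1.53 and 2.31 CPM in control replicates 1, 2 and 3, which are 108, 22 and 32 counts. In A20 overexpression it was at 6.68, 6.20 and 7.35 CPM, or 113, 97 and 111 counts. Control replicate 1 lay within the A20 range, and the other controls lay well below it. Its log2 fold change over every library was 0.95 ± 0.51 (SE; adjusted p = 0.565 in edgeR). Leaving out control replicate 1, the control mean was 1.92 CPM ± 0.55 (SD, n = 2) against 6.74 CPM ± 0.58 (SD, n = 3) in A20 overexpression, and Fgf18 rose with a log2 fold change of 1.78 ± 0.35 (SE; adjusted p = 0.00878 in edgeR), 3.43-fold. It passed in that comparison without A20-overexpressing replicate 2 or 3 (adjusted p of 0.0417 to 0.047 in edgeR). It missed without A20-overexpressing replicate 1 (adjusted p = 0.0513 in edgeR). With 1 control, the fitted value was 2.05 against control replicate 2 and 1.55 against control replicate 3. No other annotated gene overlaps Fgf18.

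Fgf7, also called keratinocyte growth factor, is made by stromal cells and acts on epithelia through a splice form of FGFR2. Fgf7 (ENSMUSG00000027208, chromosome 2, 126034658 to 126091185, plus strand) was at 7.04, 8.92 and 8.38 CPM in control and at 5.08, 4.60 and 3.38 CPM in A20 overexpression. Each A20 library lay below each control, which held for 9.27% of all genes. The log2 fold change was -0.90 ± 0.33 (SE; unadjusted p = 0.0253, adjusted p = 0.445 in edgeR) with all 6 libraries and -1.02 ± 0.29 (SE; adjusted p = 0.0539 in edgeR) without control replicate 1. Fgf7 did not pass in either fit. On the same 5 libraries it passed in DESeq2 (adjusted p = 0.0322), with median-of-ratios factors in edgeR (adjusted p = 0.0499) and without the filter on low counts in edgeR (adjusted p = 0.0327), and not with at least 1 CPM in 2 libraries (adjusted p = 0.0518 in edgeR). When any A20 library was also left out, it missed (adjusted p of 0.12 to 0.237 in edgeR). With 1 control, the fitted value was -1.11 against control replicate 2 and -0.93 against control replicate 3.

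Fgf10, the close relative of Fgf7 that drives budding of lung and limb, was at 5.47, 4.11 and 2.75 CPM in control and at 6.56, 4.34 and 6.42 CPM in A20 overexpression. The groups overlapped through control replicate 1. Fgf10 had a log2 fold change of 0.51 ± 0.37 (SE; adjusted p = 0.675 in edgeR) with all 6 libraries and 0.71 ± 0.34 (SE; adjusted p = 0.241 in edgeR) without control replicate 1. It did not pass in either fit, and its fitted sign was the opposite of that of Fgf7. That difference between the 2 genes was not tested. The antisense gene Gm16263, which shares 123 exon bases with Fgf10 (ENSMUSG00000021732, chromosome 13, 118669791 to 118792115, plus strand), had no count.

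Fgf2, basic FGF, is a growth factor without a classical signal peptide that is stored in the matrix. It was at 6.58, 4.53 and 7.30 CPM in control and at 7.27, 6.45 and 7.68 CPM in A20 overexpression, with overlapping groups. Fgf2 had a log2 fold change of 0.23 ± 0.30 (SE; adjusted p = 0.828 in edgeR) with all 6 libraries and 0.24 ± 0.29 (SE; adjusted p = 0.677 in edgeR) without control replicate 1. Fgf2 (ENSMUSG00000037225, chromosome 3, 37348346 to 37410108, plus strand) shares 640 of 6782 exon bases with Nudt6 on the opposite strand. Nudt6 was at 0.139 to 1.79 CPM, and its lowest value was in control replicate 2, the library with the lowest Fgf2. That value lies under the limit of 3 counts in that library (0.209 CPM), and a link between the 2 genes was not tested. Reads in the shared bases cannot be assigned without a strand setting.

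Fgf21 encodes a hormone that acts through a Klotho co-receptor and is induced by amino acid and endoplasmic reticulum stress through ATF4. Fgf21 (ENSMUSG00000030827, chromosome 7, 45613886 to 45615490, minus strand) was at 10.4, 34.5 and 47.9 CPM in control and at 33.8, 40.1 and 50.7 CPM in A20 overexpression. Control replicate 1 was lowest, and the ranges of the groups overlapped among the other 5 libraries. The log2 fold change was 0.40 ± 0.48 (SE; adjusted p = 0.811 in edgeR) with all 6 libraries and -0.02 ± 0.18 (SE; adjusted p = 0.968 in edgeR) without control replicate 1. Its share of the summed ligand FPKM was 51.5% in control replicate 1 and 78.6% to 89.0% in the others. Klb, the gene of its co-receptor beta-Klotho, reached 0.0722 CPM at most, and Kl, the gene of alpha-Klotho, had no count.

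**Figure D3:**
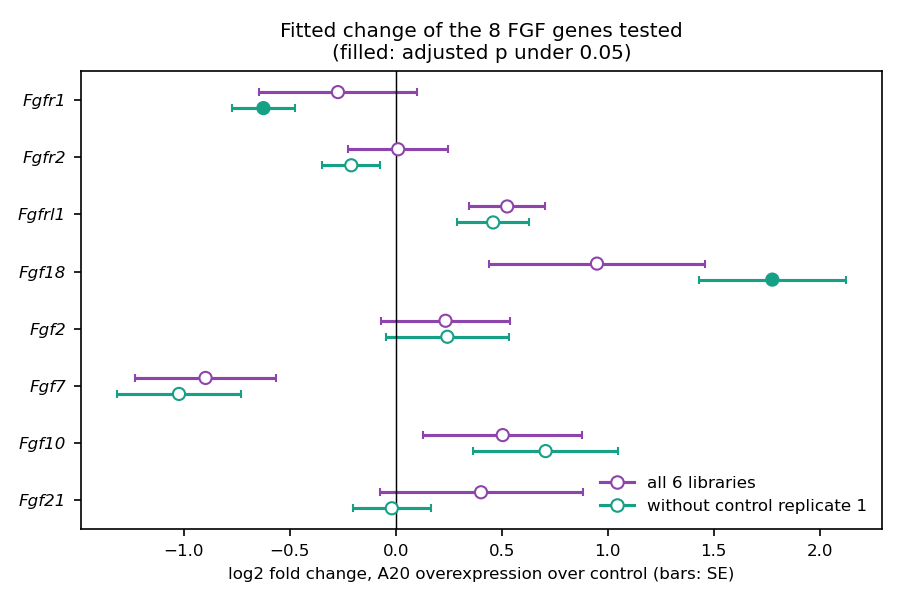
Log2 fold change, A20 overexpression over control, of the 8 FGF genes tested, with SE bars, from edgeR with all 6 libraries and without control replicate 1. Filled points, Fgfr1 at -0.62 and Fgf18 at 1.78 without control replicate 1, passed an adjusted p of 0.05.

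The other ligands were nearly silent. Of 17 further FGF genes, 10 had no count in any library. Fgf11, which encodes an FGF-like protein that stays in the cell, was at 3.45, 11.5 and 12.5 CPM in control and at 9.16, 9.77 and 10.002 CPM in A20 overexpression. It was lowest in control replicate 1 and did not pass in edgeR (log2 fold change -0.35 ± 0.23, SE; adjusted p = 0.394) without that library. Among secreted ligands, the next below the members was Fgf1, at 0.0722 to 0.521 CPM, whereas Fgf10, the member with the lowest mean, averaged 4.94 CPM over the 6 libraries.

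Of 94 further genes of the pathway in 6 lists, 69 passed the expression filter and were tested. With all 6 libraries, 0 of 69 passed edgeR, 11 had an unadjusted p under 0.05 (10.1% of all genes did) and DESeq2 called 1 (1.38% of all genes). On the 5 libraries without control replicate 1, 3 rose in edgeR and 0 fell, 4.35% of the 69, close to the 4.6% over all genes, and DESeq2 called 6, beside 6.5% of all genes. The 3 were Hs6st1, Map2k2 and Myc, and each call was lost when any 1 A20 library was also left out (edgeR adjusted p of 0.0786 to 0.162 for Hs6st1, 0.0611 to 0.218 for Map2k2 and 0.0505 to 0.102 for Myc). The median log2 fold change over the 69 was 0.05 with all 6 libraries and 0.14 without control replicate 1.

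Among co-receptors and binding proteins, 0 of 10 passed edgeR in either fit, with 3 and 4 at an unadjusted p under 0.05 (10.1% and 21.6% of all genes) and DESeq2 calling 1 in each (1.38% and 6.5% of all genes). The most abundant was Hspg2, the basement membrane proteoglycan perlecan, at 624, 669 and 1186 CPM in control and 961, 819 and 940 CPM in A20 overexpression. The median log2 fold change of the list was 0.22 with all 6 libraries and 0.20 without control replicate 1.

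Genes that build and edit heparan sulfate had 1 of 13 higher and 0 lower without control replicate 1, beside 1.92% and 2.68% of all genes. Hs6st1, a 6-O-sulfotransferase, was at 13.9 and 20.9 CPM in control replicates 2 and 3 and at 28.1, 29.2 and 35.8 CPM in A20 overexpression. Its log2 fold change was 0.81 ± 0.20 (SE; adjusted p = 0.0295 in edgeR). Control replicate 1 was at 72.1 CPM, above all other libraries, and with it the value was -0.13 ± 0.48 (SE; adjusted p = 0.942 in edgeR), of the opposite sign. The list's median log2 fold change was 0.34 with all 6 libraries and 0.20 without control replicate 1. With 1 control, the fitted value of Hs6st1 was 1.08 against control replicate 2 and 0.58 against control replicate 3.

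In the relay from the receptor, 1 of 23 genes rose and 0 fell without control replicate 1, or 4.35%, near the 4.6% called over all genes. Map2k2, the MAP kinase kinase MEK2, was at 132, 82.5 and 114 CPM in control and at 128, 159 and 172 CPM in A20 overexpression. Its log2 fold change was 0.50 ± 0.18 (SE; adjusted p = 0.431 in edgeR) with all 6 libraries and 0.61 ± 0.16 (SE; adjusted p = 0.0423 in edgeR) without control replicate 1. With 1 control, the fitted value of Map2k2 was 0.82 against control replicate 2 and 0.43 against control replicate 3. The median log2 fold change of the list was 0.03 and 0.05 in the 2 fits.

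Feedback inhibitors had 0 of 12 past edgeR in either fit, and DESeq2 called 0. Leaving out control replicate 1, 6 of 12 had an unadjusted p under 0.05, beside 21.6% of all genes, and the list's median log2 fold change was 0.43, against 0.07 with all 6 libraries. Spred1, the most abundant, was at 82.0, 47.3 and 37.4 CPM in control and 56.8, 44.3 and 59.0 CPM in A20 overexpression. Control replicate 1 lay above all other libraries for 7 of the 12 and below them for 2, beside 40.7% and 21.7% of all genes. Dusp6, the phosphatase that inactivates ERK, and the inhibitors Il17rd and Spry4 were chosen for mention after their values were seen. Dusp6 was at 17.4, 5.65 and 10.3 CPM in control and 14.2, 10.4 and 12.6 CPM in A20 overexpression, with a log2 fold change of 0.21 ± 0.36 (SE; adjusted p = 0.88 in edgeR) over 6 libraries and 0.62 ± 0.27 (SE; adjusted p = 0.193) over 5. Il17rd and Spry4 had fitted values of the opposite sign, -0.49 and -0.66 over 6 libraries and -0.67 (adjusted p = 0.0866 in edgeR) and -0.73 (adjusted p = 0.46) over 5.

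Target transcription factors and early genes had 1 of 10 higher and 0 lower without control replicate 1, beside 1.92% and 2.68% of all genes. Myc was at 122, 38.1 and 49.8 CPM in control and at 73.5, 66.9 and 82.1 CPM in A20 overexpression. Its log2 fold change was 0.14 ± 0.34 (SE; adjusted p = 0.918 in edgeR) with all 6 libraries and 0.73 ± 0.16 (SE; adjusted p = 0.0151 in edgeR) without control replicate 1. Control replicate 1 lay above all other libraries for 9 of the 10 and below them for 0, beside 40.7% and 21.7% of all genes. It lay above for 6 and below for 6 of the relay genes. The counts were 4 and 5 for co-receptors and binding proteins, and 2 and 5 for heparan sulfate genes. Among the 9 were Etv4, at 9.71 CPM against at most 4.73 CPM, and Etv5, at 13.7 CPM against at most 6.96 CPM. These 2 genes were named after their values were seen. The summed level of the list was 486 CPM in control replicate 1 and 211 to 326 CPM in the other 5. The list's median log2 fold change was -0.21 with all 6 libraries and 0.21 without that library.

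**Figure D4:**
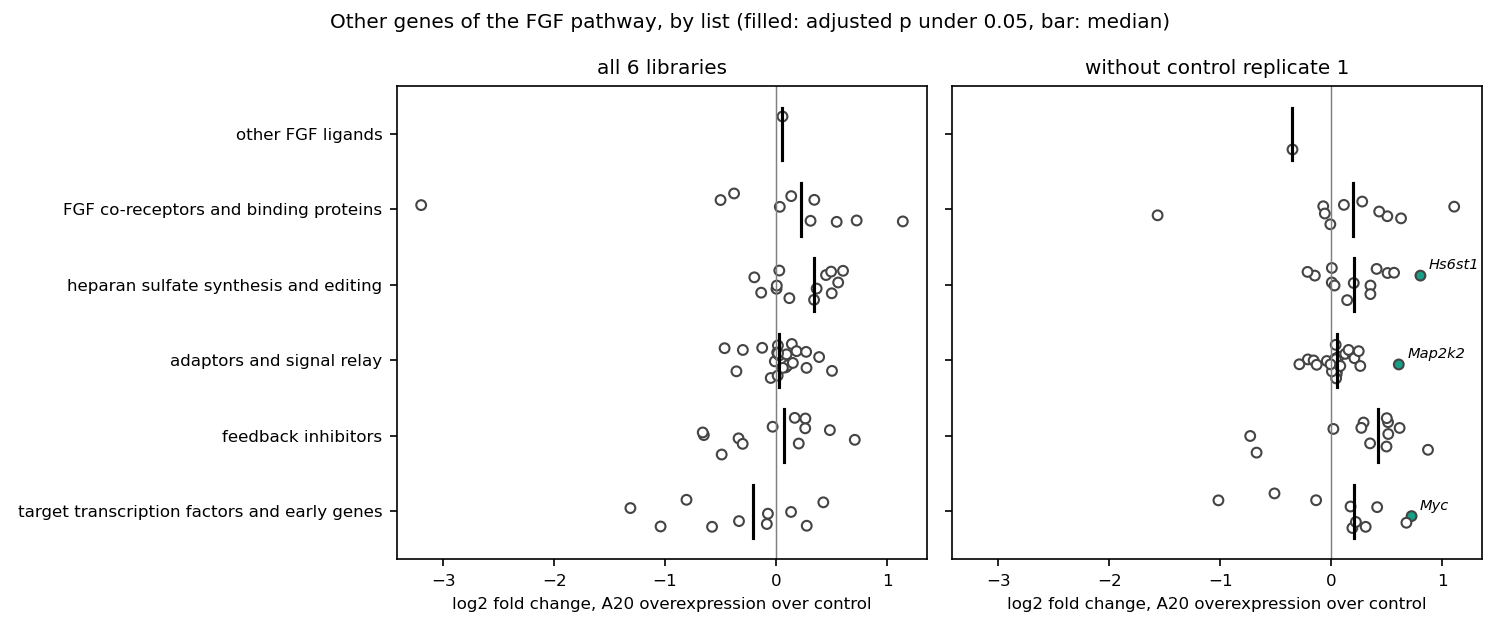
Log2 fold change, A20 overexpression over control, of 69 further genes of the FGF pathway by list, with all 6 libraries (left) and without control replicate 1 (right). Each point is a gene, black bars are list medians, and the filled points Hs6st1, Map2k2 and Myc passed an adjusted p of 0.05 in edgeR. The vertical spread within a list carries no value.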

How the data were processed

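RNA of 6 TM3 libraries was sequenced. The authors deposited whole-number gene counts, which were tested without change. The build was GRCm38 (mm10), per the submitters' processing notes. The aligner, counter and strand setting are not given in the sources used here. The deposited FPKM equal the count divided by gene length and by a library size made by the authors. They were used to compare levels between genes, and for the shares and sums of receptor and ligand RNA given per library. The authors' library size was 0.936 to 1.11 times the total count, highest in control replicate 1, and the sums depend on it. The lengths of the 10 members equal their exon length in GENCODE M21.

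CPM use the total count, and fits used edgeR 4.0.16 (R 4.3.3) with quasi-likelihood F tests, TMM factors, the default expression filter, the group as the one term and Benjamini-Hochberg adjustment over all genes, at a threshold of 0.05. The SE is the log2 fold change divided by the square root of F. Alternatives were DESeq2 1.42.0, other factors and filters, a replicate block and leaving out each library. On simulated counts edgeR recovered 37.5% of 2-fold and 90.9% of 4-fold changes with all 6 libraries (13137 genes), and 84.8% and 100% without control replicate 1 (13374 genes). Changes were simulated only where expression averaged 5 CPM or more. Over the 6 libraries Fgf10 averaged 4.94 CPM, under this floor, and Fgf18, Fgf7 and Fgf2 averaged 5.18, 6.23 and 6.64 CPM, not far over it. The rates were not split by level, so they do not give the power for these genes.

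Members and lists were chosen with earlier results of these data known. All members are named. From each list, genes past the threshold are named, or else the most abundant. The cell marker lists were of Leydig, Sertoli, germ, endothelial, peritubular myoid and stromal cells and macrophages. In control replicate 1 and over the other 5 libraries the summed CPM were 81.8 and 117 to 152 for Sertoli, 9.58 and 6.06 to 12.2 for germ cell, 4.23 and 19.3 to 38.8 for macrophage, 35.6 and 0.139 to 0.639 for endothelial, 88.7 and 36.7 to 59.6 for myoid and 1545 and 4443 to 7349 for stromal markers. These sums rest on few genes. In control replicate 1 Wt1 was at 77.5 CPM among Sertoli markers, Acta2 at 77.6 among myoid and Col1a1 at 1410 among stromal markers. Des, also a myoid marker, was lowest in that library, at 6.58 CPM against 14.7 to 19.3 CPM. Sox9 and Tcf21 had no count in any library, and Thy1 reached 0.0722 CPM at most. Promoters are from RefSeq, GRCm38.p6, searched in Python 3.11.15.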

Additional observations from a re-analysis of the deposited data

How the results depend on the processing

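The number of genes called depended on single libraries. With all 6 libraries edgeR called 2 genes, 2 with median-of-ratios factors, 23 without the filter on low counts and 0 with at least 1 CPM in 2 libraries, where 1 CPM in 2 libraries left 13126 genes, and DESeq2 called 183. Leaving out 1 library gave 0 to 628 genes, the 628 without control replicate 1 and 0 without any other. Without control replicate 1 the 628 became 1173 without the filter and 142 to 2422 when a further library was left out. A fit with 1 control assumes that it varies like the A20 libraries. The difference in the Fgfr1 share was -4.45 points on the CPM scale and -13.6 to -3.31 points without 1 library.

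With a replicate block edgeR called 3 genes (1 higher, 2 lower), and none of the members. Same-numbered libraries deviated together at r = 0.05, 0.13 and -0.05, and control replicate 1 was closest to A20-overexpressing replicate 3 (0.17). The labels give a shared number only. With 3 libraries per group, these values cannot show whether same-numbered libraries were prepared together. With the block, Hs6st1 turned from -0.13 to 0.18. From the fit of 6 libraries, leaving out 1 library gave fitted log2 fold changes on both sides of 0 for Fgfr1 (-0.62 to 0.14, higher without control replicate 3), Fgfr2 (-0.21 to 0.22, lower without control replicate 1 or A20-overexpressing replicate 1), Fgf21 (-0.018 to 0.87, lower without control replicate 1), Hs6st1 (-0.46 to 0.81, higher without control replicate 1) and Myc (-0.10 to 0.73, lower without control replicate 2 or 3). From the fit without control replicate 1, the same held for Fgf2 (-0.022 to 0.58) and Fgf21 (-0.20 to 0.19), and Fgf21 went to 0.0088 without the filter. The causes were not tested. The tested members at under 10 CPM rest on 22 to 128 counts per library.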

Other observations

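Of the 69 further pathway genes tested, control replicate 1 lay above the other 5 libraries for 28 and below them for 19. This stands beside 40.7% above and 21.7% below over all genes. A few genes at their highest there follow, of which Xylt1 was not among those tested. Xylt1, a xylosyltransferase that starts heparan sulfate chains, was at 4.56 CPM there and had no count in the other 5 libraries, whereas Xylt2, which catalyses the same step, was at 12.5 to 25.8 CPM in all 6. Flrt1, a membrane protein that binds FGF receptors, had 13.0 CPM in control replicate 1, against 0.464 to 2.46 CPM in the others. Spry2, a feedback inhibitor, had 19.3 CPM there and 2.38 to 5.37 CPM elsewhere, and its fitted log2 change was -0.65 ± 0.70 (SE; adjusted p = 0.786 in edgeR) with that library and 0.87 ± 0.35 (SE; adjusted p = 0.151 in edgeR) without it. These genes were picked after their values were seen and are given as values of 1 library.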
